A study of Mus musculus with 18 samples.

Results

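The genes described here are 10 ligands and receptors of T cell checkpoints grouped around PD-L1: Cd274, Pdcd1lg2, Pdcd1, Ctla4, Lag3, Havcr2, Lgals9, Cd80, Cd86 and Cd276. They were chosen by name, and all 10 were found by symbol among the 30854 genes of the array's gene table. The study grew GL261, a mouse glioma cell line, in the brains of Pfp/Rag2 -/- and WT mice. Pfp/Rag2 -/- hosts have no perforin, with which cytotoxic cells open holes in their targets, and no Rag2, which T and B cells need to assemble their receptors, while the WT hosts were C57BL/6 mice. Tumours were collected at day 7, at day 14 or when the mice became symptomatic, and cultured GL261 cells and healthy mouse brain were measured beside them. There were 2 arrays each of Pfp/Rag2 -/- and WT tumours at day 7, 2 each at day 14, 3 each at the symptomatic stage, 2 of cultured cells and 2 of healthy brain. Each tumour array carries RNA pooled from 2 or 3 mice, so the spread between arrays is a spread between pools. The hosts are germline mutants whose innate myeloid cells remain, and the tumours come from a single cell line.

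Checkpoints are pairs of surface proteins that raise or lower the response of a T cell once its receptor has met antigen. PD-L1 (Cd274) and PD-L2 (Pdcd1lg2) bind the inhibitory receptor PD-1 (Pdcd1). CD80 and CD86 on antigen-presenting cells bind the activating receptor CD28 and, more tightly, the inhibitory receptor CTLA-4. LAG-3 binds MHC class II, and TIM-3 (Havcr2) has galectin-9 (Lgals9) among its ligands. B7-H3 (Cd276) is a relative of PD-L1 found on many tumours. Interferon-gamma, which T cells and natural killer cells secrete, is a well-known inducer of PD-L1, in part through the transcription factor IRF1, and in brain tumours microglia and infiltrating macrophages carry several of these ligands alongside the tumour cells.

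The promoter windows of 3 members are shown because Cd274 and Ctla4 differed between the hosts at every stage, while Lgals9, which did not pass the test in a host comparison, is the member with matches to an interferon-related motif. Each window is the one that the RefSeq table (GRCm38.p6) gives for its gene, 250 bases before to 50 bases after a start, 5′ to 3′ on the gene's strand, and capitals mark the matches. For Ctla4 and Lgals9 that start is the annotated start of the gene. The Cd274 window lies inside the annotated gene, whose first base is 29362107, and so does that of Cd80; which transcript the table used for them is not known here. The table used held windows for 8 of the 10 members; Lag3 and Cd86 are not shown.
Cd274, chr19:29367188-29367487, plus strand: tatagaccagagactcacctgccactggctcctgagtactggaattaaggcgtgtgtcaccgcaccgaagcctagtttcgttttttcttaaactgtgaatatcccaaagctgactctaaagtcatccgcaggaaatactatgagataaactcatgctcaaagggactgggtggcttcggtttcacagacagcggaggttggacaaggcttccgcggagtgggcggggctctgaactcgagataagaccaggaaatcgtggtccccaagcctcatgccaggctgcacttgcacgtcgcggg
Ctla4, chr1:60908775-60909074, plus strand: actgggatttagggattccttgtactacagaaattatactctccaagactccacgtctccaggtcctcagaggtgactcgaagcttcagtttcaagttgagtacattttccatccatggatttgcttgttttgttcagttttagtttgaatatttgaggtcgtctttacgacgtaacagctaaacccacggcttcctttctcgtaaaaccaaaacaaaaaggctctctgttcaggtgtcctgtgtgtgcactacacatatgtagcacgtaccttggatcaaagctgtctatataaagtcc
Lgals9, chr11:78984875-78985174, minus strand: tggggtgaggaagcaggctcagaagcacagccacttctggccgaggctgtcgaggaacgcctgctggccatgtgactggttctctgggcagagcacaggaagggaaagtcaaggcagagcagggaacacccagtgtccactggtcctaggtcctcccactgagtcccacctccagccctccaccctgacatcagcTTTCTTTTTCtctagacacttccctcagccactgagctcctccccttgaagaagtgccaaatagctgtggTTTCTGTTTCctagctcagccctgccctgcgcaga
The motifs searched on both strands were the palindromic STAT type, TTCNNNGAA, and the IRF type, 2 copies of GAAA with any 2 bases between them. The Lgals9 window held 2 matches to the IRF type, both on the opposite strand and so printed as its reverse complement, with first bases at -55 and 16 counted from the gene start. No window of the 8 held TTCNNNGAA, and the other 7 held no IRF type match. Among all 32851 windows of the same length in the table, 8.30% held TTCNNNGAA and 3.44% held the IRF type. A match is a stretch of letters and not a measured binding site, and its absence says only that these letters are not in this window.

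Signals are given as log2 values after background correction and quantile normalization. A probe counts as detected on an array when the share of negative control probes at least as bright, its detection p, is under 0.01, and a gene is called changed when its Benjamini-Hochberg adjusted p from limma is under 0.05. An array detected 32.6% to 39.8% of its probes, and replicate arrays correlated at 0.966 to 0.996 across genes tested. The number of arrays, 2 or 3 per group, limits the precision. Of the 10 members 8 were detected on at least 2 arrays and entered the test with 14027 genes in all. The probe for Rag2 was not detected on any array. Of 2 probes for Prf1, the perforin gene, one was detected on the 2 WT arrays of day 14 only, and the other was detected on all 18 arrays, Pfp/Rag2 -/- hosts and cultured cells included. Which part of each gene these probes read is not known here, so they do not check the host labels.

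PD-1 and its second ligand were not measurable. The Pdcd1 probe was detected on 0 of 18 arrays, and so was the Pdcd1lg2 probe. Neither gene entered the test. The Pdcd1lg2 probe lay between 4.46 and 4.65 in the 7 Pfp/Rag2 -/- tumours and between 4.57 and 5.60 in the 7 WT tumours, all within background, so no fold is given. The receptor of PD-L1 is thus not analysed further, and a level below this background cannot be told from none.

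Of the ligands, Cd274 (PD-L1) was lower in Pfp/Rag2 -/- tumours at each stage. The probe was detected on all 18 arrays. At day 7 it read 9.27 and 9.11 in Pfp/Rag2 -/- tumours, against 11.93 and 11.53 in WT tumours. At day 14 it read 9.16 and 8.90 in Pfp/Rag2 -/- tumours, against 11.70 and 11.89 in WT tumours. At the symptomatic stage it read 8.45, 8.48 and 8.40 in Pfp/Rag2 -/- tumours, against 10.92, 11.01 and 11.01 in WT tumours. Every Pfp/Rag2 -/- array was below every WT array, across stages as well as within them. Cd274 was 5.81-fold lower in Pfp/Rag2 -/- tumours at day 7 (log2 difference -2.54, SE 0.15, adjusted p = 3.00e-06), 6.82-fold lower at day 14 (-2.77, SE 0.15, adjusted p = 4.08e-07) and 5.81-fold lower at the symptomatic stage (-2.54, SE 0.13, adjusted p = 5.31e-08). The host difference itself did not pass the test of a change between stages, with a difference of -0.23 between day 14 and day 7 (95% interval -0.70 to 0.24, adjusted p = 0.617) and of 0.23 between the symptomatic stage and day 14 (-0.20 to 0.66, adjusted p = 0.569).

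**Figure D1:**
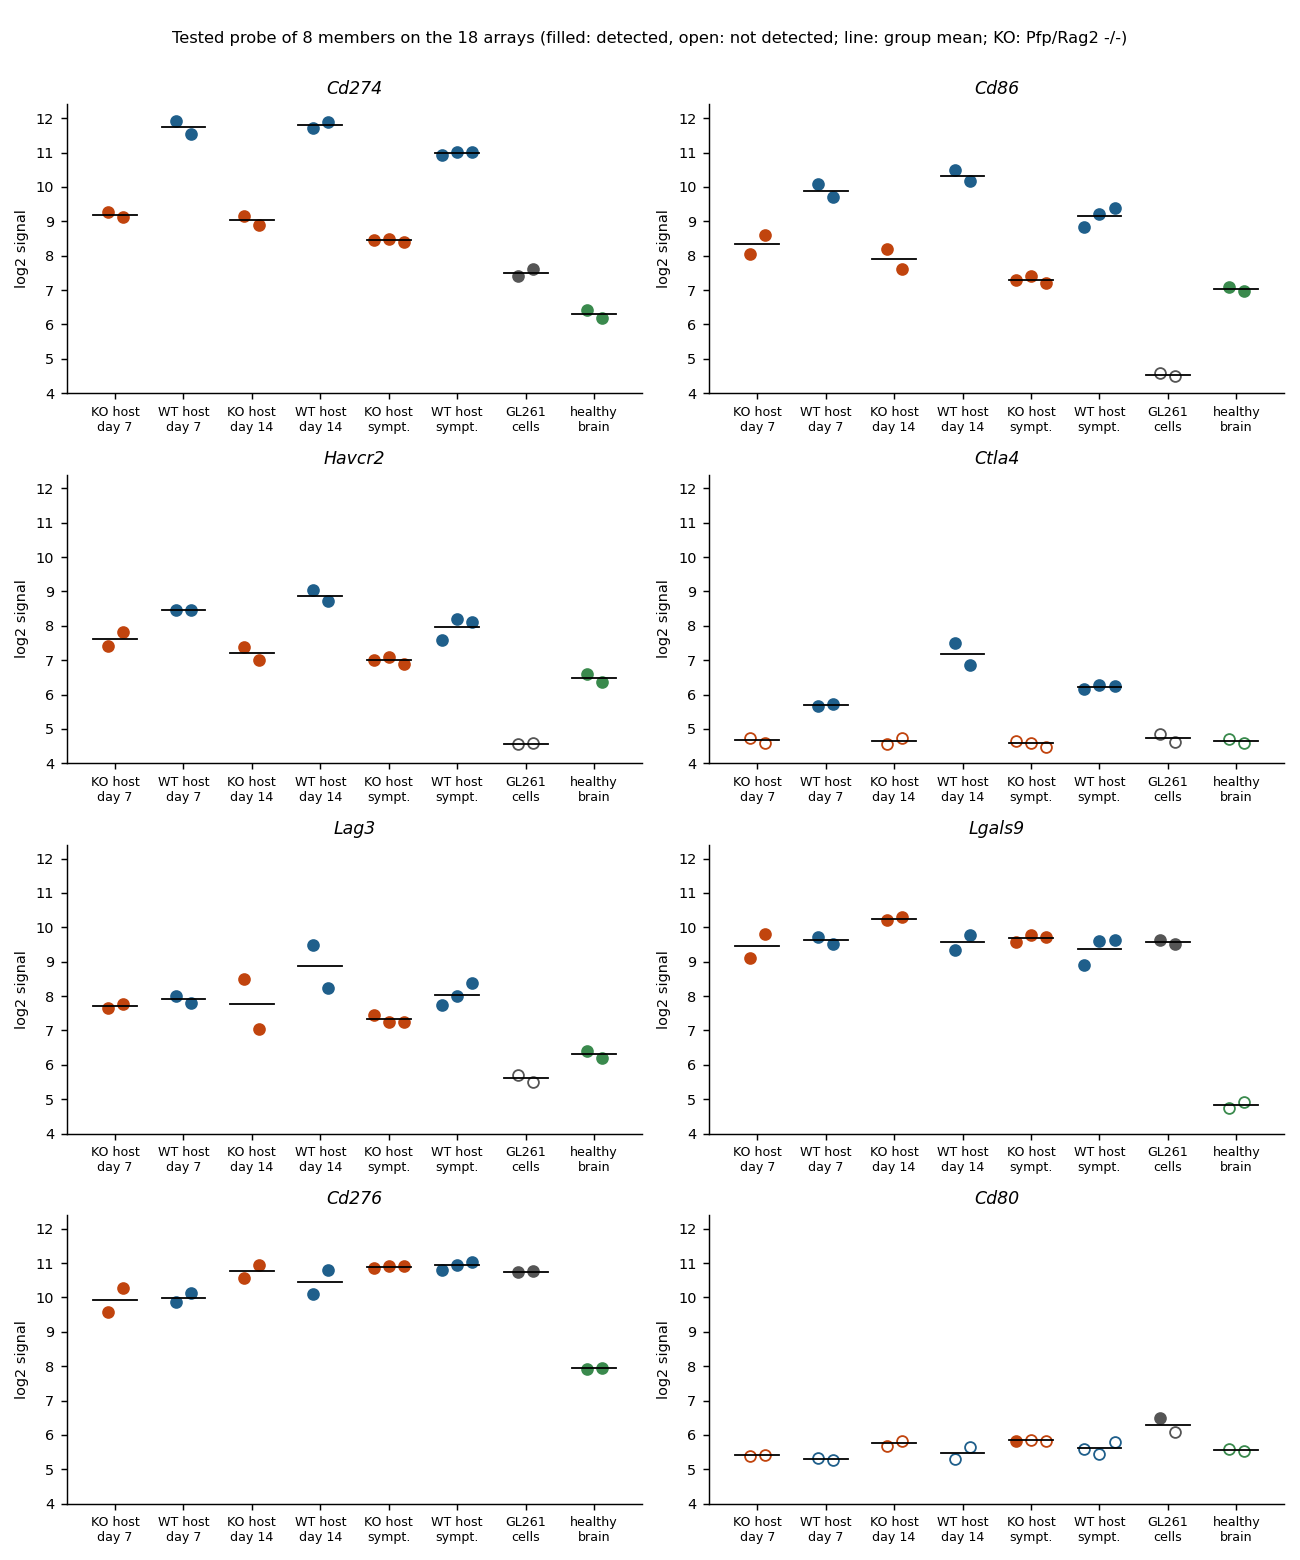
Normalised log2 signal of the tested probe of 8 members on each of the 18 arrays, by group, with Pfp/Rag2 -/- (KO) hosts left of WT hosts at each stage. Filled points are detected, open points are not, and lines are group means. Cd274, Cd86 and Havcr2 are lower in KO than in WT tumours, Ctla4 is detected on WT tumour arrays only, and Lgals9 and Cd276 lie far above healthy brain in tumours and cultured cells.

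Cd274 was not confined to tumours. Cultured GL261 cells read 7.40 and 7.62, against 6.43 and 6.18 in healthy brain, a 2.31-fold higher signal (log2 difference 1.21, SE 0.15, adjusted p = 8.51e-06). With the series matrix values, which are not scaled between arrays, the difference was 0.32 and the call was lost (adjusted p = 0.133). In symptomatic Pfp/Rag2 -/- tumours it was 1.91-fold above cultured cells (adjusted p = 1.89e-04), and in symptomatic WT tumours 11.1-fold above them (adjusted p = 9.48e-10). Day 7 tumours were 7.41-fold above healthy brain in Pfp/Rag2 -/- hosts (adjusted p = 7.53e-09) and 43.1-fold above it in WT hosts (adjusted p = 1.85e-11). The groups thus ran in the order WT day 14, WT day 7, WT symptomatic, Pfp/Rag2 -/- day 7, Pfp/Rag2 -/- day 14, Pfp/Rag2 -/- symptomatic, cultured cells and healthy brain. In that order WT day 14 overlapped with WT day 7 and Pfp/Rag2 -/- day 7 overlapped with Pfp/Rag2 -/- day 14, while the other neighbours did not overlap.

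Cd86, a ligand of CD28 and CTLA-4 on antigen-presenting cells, was also lower in Pfp/Rag2 -/- tumours at each stage. It read 8.05 and 8.61 in Pfp/Rag2 -/- tumours against 10.08 and 9.71 in WT tumours at day 7. At day 14 it read 8.21 and 7.62 in Pfp/Rag2 -/- tumours against 10.49 and 10.17 in WT tumours. At the symptomatic stage it read 7.30, 7.41 and 7.19 in Pfp/Rag2 -/- tumours against 8.84, 9.21 and 9.40 in WT tumours. No Pfp/Rag2 -/- array reached a WT array. The signal was 2.96-fold lower in Pfp/Rag2 -/- tumours at day 7 (log2 difference -1.57, SE 0.24, adjusted p = 0.00273), 5.33-fold lower at day 14 (-2.42, SE 0.24, adjusted p = 2.48e-05) and 3.60-fold lower at the symptomatic stage (-1.85, SE 0.19, adjusted p = 3.25e-05). In a fit of every probe, a second Cd86 probe gave log2 differences of -1.39, -2.16 and -1.51 at the 3 stages, all called. The dimmest probe gave -2.08 at day 14, and its -1.03 at day 7 missed the threshold (adjusted p = 0.149). It was detected on 0 of 3 symptomatic Pfp/Rag2 -/- arrays, against 2 of 3 WT arrays. Unlike Cd274, Cd86 was not detected in cultured GL261 cells (4.59 and 4.49), and in healthy brain it read 7.07 and 6.96. Symptomatic tumours exceeded cultured cells at least 2.09-fold in Pfp/Rag2 -/- hosts (adjusted p = 5.81e-07) and at least 7.52-fold in WT hosts (adjusted p = 3.35e-09). Such a least fold sets the undetected side to the lowest signal of a detected probe on its arrays.

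Cd80, the other CD28 and CTLA-4 ligand, was at background nearly everywhere. Its brighter probe was detected on 1 of 3 symptomatic Pfp/Rag2 -/- arrays (5.83) and on 1 of 2 arrays of cultured cells (6.48), and on none of the remaining 16. The host differences of 0.11, 0.28 and 0.23 at the successive stages did not pass the test (adjusted p = 0.859, 0.275 and 0.265), and the day 7 and day 14 values lie within background on both sides. The second Cd80 probe differed by -0.78 at day 14, the opposite sign, and was detected on 1 WT array only (5.82). In symptomatic tumours the brighter probe was called lower than in cultured cells, by a log2 difference of -0.44 in Pfp/Rag2 -/- hosts (adjusted p = 0.0294), and was at least 1.29-fold lower in WT hosts (adjusted p = 0.00278), where it was not detected. Both calls were lost with cyclic loess scaling (adjusted p = 0.452 and 0.0603), with 75th percentile scaling (0.616 and 0.0628) and without replicate 1 of the cultured cells (0.335 and 0.0649), and the first was lost under further settings too.

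Cd276 and Lgals9 did not pass the test for a host difference at any stage. Cd276 (B7-H3) read 9.59 and 10.26 in Pfp/Rag2 -/- tumours against 9.86 and 10.13 in WT tumours at day 7, and 10.56 and 10.95 in Pfp/Rag2 -/- tumours against 10.09 and 10.80 in WT tumours at day 14. Symptomatic tumours read 10.86, 10.90 and 10.92 in Pfp/Rag2 -/- hosts against 10.81, 10.95 and 11.03 in WT hosts. The groups overlapped at every stage. The symptomatic difference of -0.03 has a 95% interval from -0.45 to 0.38, which leaves out a difference of the size seen for Cd274. Cultured cells read 10.74 and 10.76 against 7.91 and 7.96 in healthy brain, a 7.04-fold higher signal (adjusted p = 1.95e-07), and day 7 tumours were 3.97-fold above brain in Pfp/Rag2 -/- hosts and 4.16-fold above it in WT hosts (adjusted p = 1.50e-05 and 9.98e-06).

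Lgals9 (galectin-9, a TIM-3 ligand) differed between brain and the other samples. It read 9.11 and 9.81 in Pfp/Rag2 -/- tumours against 9.73 and 9.51 in WT tumours at day 7. At day 14 it read 10.22 and 10.28 in Pfp/Rag2 -/- tumours against 9.34 and 9.78 in WT tumours, where the groups did not overlap but the difference of 0.69 missed the threshold (SE 0.26, adjusted p = 0.0985). In a fit of every probe, a second Lgals9 probe differed by 0.86 at day 14 (adjusted p = 0.0483), and the remaining probe was not detected on any array. Symptomatic tumours read 9.58, 9.78 and 9.72 in Pfp/Rag2 -/- hosts against 8.89, 9.62 and 9.64 in WT hosts, which overlap. Cultured cells read 9.63 and 9.52, while the probe was not detected in healthy brain (4.74 and 4.93). Over brain, Lgals9 was at least 14.2-fold higher in cultured cells (adjusted p = 4.54e-09), at least 13.1-fold higher in Pfp/Rag2 -/- day 7 tumours (adjusted p = 1.30e-08) and at least 14.6-fold higher in WT day 7 tumours (adjusted p = 7.70e-09).

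Among the receptors, Ctla4 (the inhibitory receptor of activated and regulatory T cells) was detected on all 7 WT tumour arrays and on none of the other 11. It read 4.74 and 4.60 in Pfp/Rag2 -/- tumours against 5.67 and 5.71 in WT tumours at day 7. At day 14 it read 4.56 and 4.74 in Pfp/Rag2 -/- tumours against 7.51 and 6.86 in WT tumours. At the symptomatic stage it read 4.66, 4.60 and 4.47 in Pfp/Rag2 -/- tumours against 6.16, 6.27 and 6.24 in WT tumours. The Pfp/Rag2 -/- values are those of background and match the 4.58 to 4.84 of brain and cultured cells. Ctla4 was therefore at least 1.03-fold lower in Pfp/Rag2 -/- tumours at day 7, 2.49-fold at day 14 and 1.29-fold at the symptomatic stage (adjusted p = 0.00622, 2.21e-06 and 6.22e-06). The fitted log2 differences were -1.03, -2.53 and -1.65. Ctla4 was the single member whose host difference was called changed between stages by limma. The difference was more negative at day 14 than at day 7, by -1.51 (SE 0.25, adjusted p = 0.0141), where 2.40% of all genes were called. At an unadjusted p under 0.05 in that test, 3 members, Ctla4 included, were more negative and 1 was more positive. Between the symptomatic stage and day 14 no member's host difference was called by limma, beside 0.0285% of all genes, although Ctla4 and Havcr2 had an unadjusted p under 0.05. In WT tumours Ctla4 was 2.81-fold higher at day 14 than at day 7 (adjusted p = 7.75e-04) and 1.95-fold lower at the symptomatic stage than at day 14 (adjusted p = 0.00366).

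Havcr2 (TIM-3, a receptor of exhausted T cells that myeloid cells and microglia carry too) read 7.42 and 7.83 in Pfp/Rag2 -/- tumours against 8.45 and 8.47 in WT tumours at day 7. At day 14 it read 7.39 and 7.01 in Pfp/Rag2 -/- tumours against 9.04 and 8.72 in WT tumours. At the symptomatic stage it read 7.00, 7.10 and 6.88 in Pfp/Rag2 -/- tumours against 7.58, 8.20 and 8.12 in WT tumours. The groups did not overlap at any stage. The difference was -0.84 at day 7, just short of the threshold (SE 0.21, adjusted p = 0.0512). It passed without background correction (adjusted p = 0.0330), with an offset of 50 (0.0368), with detection required on at least 4 arrays (0.0498) and without Pfp/Rag2 -/- replicate 2 of day 7 (0.0228). Havcr2 was 3.19-fold lower in Pfp/Rag2 -/- tumours at day 14 (log2 difference -1.68, SE 0.21, adjusted p = 1.82e-04) and 1.96-fold lower at the symptomatic stage (-0.97, SE 0.17, adjusted p = 0.00202). Its second probe gave -0.42 at day 7, -1.57 at day 14 and -0.84 at the symptomatic stage (adjusted p = 0.433, 3.59e-04 and 0.00608). Unlike Ctla4, Havcr2 was detected in every Pfp/Rag2 -/- tumour and in healthy brain (6.60 and 6.36), but not in cultured cells (4.55 and 4.59).

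Lag3, an inhibitory receptor of T and natural killer cells that binds MHC class II, did not pass the test for a host difference. It read 7.64 and 7.76 in Pfp/Rag2 -/- tumours against 8.01 and 7.81 in WT tumours at day 7. At day 14 the arrays within a group lay far apart, at 8.48 and 7.05 in Pfp/Rag2 -/- tumours against 9.49 and 8.25 in WT tumours, and the groups overlapped. At the symptomatic stage it read 7.45, 7.26 and 7.26 in Pfp/Rag2 -/- tumours against 7.74, 7.99 and 8.37 in WT tumours, with no overlap. The difference was -0.21 at day 7 (95% interval -1.10 to 0.68), -1.10 at day 14 (adjusted p = 0.0976) and -0.72 at the symptomatic stage (adjusted p = 0.173). Without Pfp/Rag2 -/- replicate 1 of day 14 the day 14 difference was -1.82, and without WT replicate 2 it was -1.72, so its size depends on single arrays. Replicate 1 read above replicate 2 in both hosts at day 14, and over all genes tested the same-numbered arrays of that day deviated alike (r = 0.72). Leaving out 1 array breaks that match, and a pairing by replicate number within day 14 was not tested. At the symptomatic stage the difference passed with only the arrays compared in the fit (adjusted p = 0.0347). Lag3 was detected in healthy brain (6.41 and 6.21) and not in cultured cells, and it was 2.63-fold above brain in Pfp/Rag2 -/- day 7 tumours (adjusted p = 0.0118) and 3.04-fold above it in WT day 7 tumours (adjusted p = 0.00489). The first of these calls was lost without Pfp/Rag2 -/- replicate 2 or without brain replicate 2 (adjusted p = 0.0625 and 0.0654).

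Counted together, 3 of the 8 members tested were lower in Pfp/Rag2 -/- tumours at day 7 (Cd274, Ctla4 and Cd86), where 2.35% of all genes were called lower. At day 14, 4 of 8 were lower (the same 3 and Havcr2), beside 7.12% of all genes, and at the symptomatic stage the same 4 were lower, beside 9.13%. In limma no member was called higher at any stage, against 1.04%, 6.44% and 7.88% of all genes. At an unadjusted p under 0.05 in that test the number higher was 0, 1 (Lgals9) and 0. Ctla4 passed the detection filter only through the 7 WT tumour arrays, so in these host comparisons it could only be called lower. The median log2 difference of the 8 members was -0.52 at day 7, -1.39 at day 14 and -0.84 for symptomatic tumours, beside 0.02, 0.06 and 0.03 over all genes. In the 3 host comparisons, 6 of 8 members did not overlap between hosts at each stage, beside 39.7%, 48.0% and 38.7% of all genes in either direction. Those 6 include Cd80 at every stage and Lgals9 at day 14, which were higher in Pfp/Rag2 -/- tumours, and Cd80 was within background in both hosts at day 7 and day 14. In bulk tissue, fewer cells of a type and less RNA per cell cannot be told apart. The Cd274 calls held under every alternative setting tried, with adjusted p of at most 0.0211 at day 7 and 0.0389 at day 14. At day 7 the calls of Ctla4 and Cd86 were lost without WT replicate 1 (adjusted p = 0.0544 and 0.0516), and that of Ctla4 with the series matrix values too (-0.54, adjusted p = 0.143). With only the arrays compared in the fit, the day 7 calls of Ctla4 and Cd86 (adjusted p = 0.111 and 0.0855) and the day 14 calls of Cd86 and Havcr2 (0.0523 and 0.0664) were lost.

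**Figure D2:**
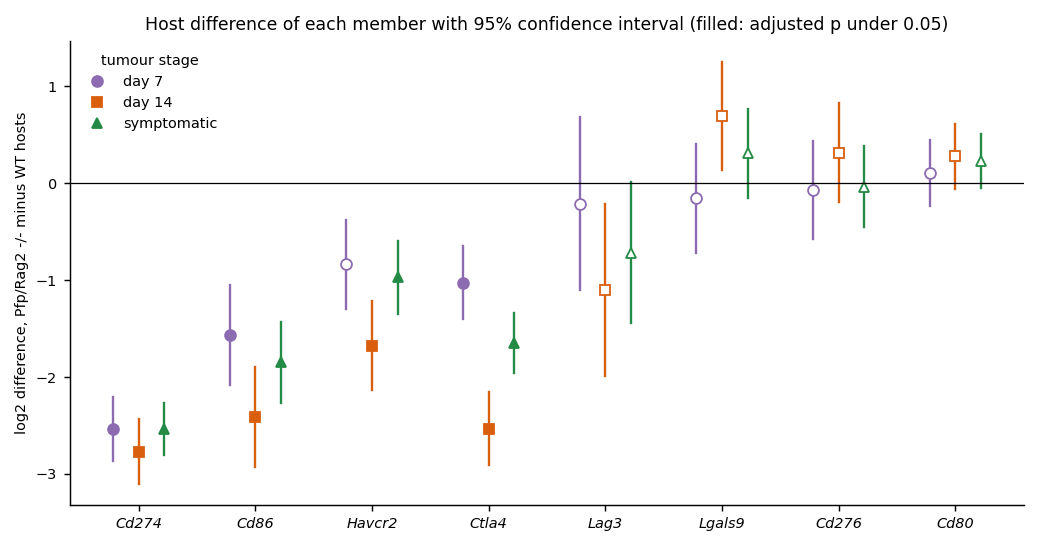
Log2 difference of each member, Pfp/Rag2 -/- minus WT hosts, at 3 tumour stages. Points are limma estimates, bars are 95% confidence intervals, and filled points have an adjusted p under 0.05. Cd274 lies between -2.77 and -2.54 at all stages, Ctla4 has its largest difference at day 14 (-2.53), and the intervals of Cd276 include 0 at every stage.

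Over time, members were called in each host as follows; which calls fall in which host is not a test of a difference between hosts. In WT tumours Ctla4 was the single member called between day 14 and day 7, where 8.64% of all genes were called in either direction. In the same comparison 5 of 8 T cell, 2 of 3 natural killer, 1 of 2 B cell and 1 of 8 macrophage and monocyte markers were higher. All 6 MHC class II genes were higher too, as were 8 of 26 checkpoint and costimulation partners, with 1 lower. Between the symptomatic stage and day 14, WT tumours fell in 4 members, where 9.93% of all genes were called lower: Cd274 by 0.82 (adjusted p = 0.00400), Ctla4 by 0.96, Havcr2 by 0.91 (adjusted p = 0.0106) and Cd86 by 1.18 (adjusted p = 0.00530) on the log2 scale. In the same comparison 4 of 8 T cell, 4 of 8 macrophage and monocyte, 4 of 7 microglia, 4 of 6 astrocyte and 3 of 4 oligodendrocyte markers were lower. Without WT replicate 1 of day 14 the Havcr2 and Cd86 calls were lost (adjusted p = 0.139 and 0.0824). In Pfp/Rag2 -/- tumours 2 members were called higher at day 14 than at day 7, Lgals9 by 0.79 (adjusted p = 0.0319) and Cd276 by 0.83 (adjusted p = 0.0185), in a comparison where 19.1% of all genes were called higher. In that comparison 5 of 6 astrocyte, 4 of 4 oligodendrocyte, 3 of 4 neuron and 6 of 6 choroid plexus markers were lower. So were 2 of 7 microglia, 2 of 8 macrophage and monocyte and 2 of 8 T cell markers. Higher were 1 of 8 T cell, 1 of 3 natural killer and 1 of 2 regulatory and exhausted T cell markers. Of all 14027 genes 5045 were called in either direction. The part of these cell types in the members' changes over time was not tested. Both calls were lost without Pfp/Rag2 -/- replicate 1 of day 7 (adjusted p = 0.307 and 0.204) and without replicate 2 of day 14 (0.160 and 0.168). The Lgals9 call was also lost with cyclic loess scaling (adjusted p = 0.0676), 75th percentile scaling (0.0716), the series matrix values (0.0991), no filter on detection (0.0558), only the tumour arrays (0.0558) and without replicate 1 of day 14 (0.0661). Havcr2, at -0.42 (adjusted p = 0.132), was called lower with cyclic loess scaling (-0.71, adjusted p = 0.0336), 75th percentile scaling (-0.71, adjusted p = 0.0421) and the series matrix values (-0.67, adjusted p = 0.0260). The series matrix values are not scaled between arrays, and median raw signal was lower on the Pfp/Rag2 -/- arrays of day 14 than on those of day 7. In limma no member was called between the symptomatic stage and day 14 in Pfp/Rag2 -/- tumours, where 0.0285% of all genes were called; at an unadjusted p under 0.05, 3 members were lower (Cd274, Lgals9 and Cd86).

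Across the remaining comparisons, members were called as follows. Against healthy brain, 6 of 8 members were higher in Pfp/Rag2 -/- day 7 tumours, where 27.4% of all genes were called higher, and 7 of 8 were higher in WT day 7 tumours, beside 28.2%. Against cultured cells, 4 members were higher and Cd80 lower in Pfp/Rag2 -/- symptomatic tumours, where 18.8% of all genes were called higher and 17.1% lower. In WT symptomatic tumours 5 were higher and Cd80 lower, beside 17.4% higher and 16.2% lower. Cultured cells exceeded brain in Cd274, Lgals9, Cd80 and Cd276, in a comparison where 41.9% of all genes were called higher and 34.5% lower. The Cd80 call, on 1 detected array of cultured cells, was lost with cyclic loess scaling (0.32, adjusted p = 0.0643) and 75th percentile scaling (0.08, adjusted p = 0.644). Havcr2 and Cd86 were lower in cultured cells than in brain, at least 1.18-fold and at least 1.72-fold (adjusted p = 2.57e-06 and 6.60e-07). Members detected in brain but not in the cell line were thus Lag3, Havcr2 and Cd86, and Lgals9 was detected in the cell line but not in brain.

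The levels of Cd86 and Havcr2 ran in parallel over the 18 arrays (Pearson r = 0.990) and over the 14 tumours alone (r = 0.983). Cd274 correlated with Cd86 at 0.854 over all arrays and 0.964 over the tumours, and Lgals9 with Cd276 at 0.907 over all arrays and 0.328 over the tumours. These are descriptions of arrays that share groups, and no test is attached. Over all genes tested, the gene most like Cd274 was Ifi47, an interferon-inducible GTPase (r = 0.992), followed by AA467197 and Gbp5, with r from 0.957 to 0.992 for the nearest 10, which also held Casp1, Gna13, Bcl2a1c, Lilrb4a, H2-Q8, Ybx3 and Lilr4b. The gene most like Ctla4 was Cd3e, a subunit of the T cell receptor complex (r = 0.981). The nearest to Havcr2 were Aif1, a marker of microglia and macrophages, Samsn1 and Pld4 (0.994, 0.993 and 0.993). Aif1 was also among the 3 nearest to Cd86 (0.988), as was Havcr2. Named genes near Lag3 were Cd72 and Slamf9 (0.937 and 0.936), those near Lgals9 were Oas1g and Apol9b (0.995 and 0.990), and those near Cd276 were Mms22l, Gpat2 and Lima1 (0.994, 0.993 and 0.992). Cd80, detected on 2 arrays, is not described by likeness.

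Genes that signal beside these members or act on them were read from 3 lists. Of 20 tested genes of interferon-gamma signalling and its targets, 16, 14 and 16 were lower in Pfp/Rag2 -/- tumours at the successive stages, and none was called higher in limma. The median differences of this list were -1.52, -1.47 and -1.56. Cxcl9, a chemokine that draws T cells, read 6.47 and 6.06 in Pfp/Rag2 -/- tumours against 11.21 and 10.62 in WT tumours at day 7, 25.0-fold lower (adjusted p = 8.87e-06). At day 14 it was 50.3-fold lower, with 1 of 2 Pfp/Rag2 -/- arrays detected, and at the symptomatic stage at least 29.5-fold lower. Irf1, the transcription factor that acts on the PD-L1 promoter, fell 4.00-fold at day 7 (adjusted p = 1.22e-05), and the guanylate-binding protein Gbp2 fell 3.23-fold, 4.04-fold and 4.89-fold at the 3 stages. Ciita, the master regulator of MHC class II, was not detected in symptomatic Pfp/Rag2 -/- tumours and read 9.20 on average in WT tumours, at least 10.1-fold apart (adjusted p = 2.56e-08). Ciita was detected on WT tumour arrays only, so it could only be called lower.

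All 6 tested genes of the MHC class II list, the ligands of LAG-3 with the proteins that load them, were lower in Pfp/Rag2 -/- tumours at every stage, with medians of -1.91, -3.57 and -3.71. H2-Eb1, a class II beta chain, was 18.7-fold lower at day 14 and 21.7-fold lower at the symptomatic stage (adjusted p = 1.15e-05 and 1.26e-06). The loading proteins H2-DMa and H2-DMb1 were 3.86-fold and 2.85-fold lower at day 7, and 12.9-fold and 7.34-fold lower at the symptomatic stage. The class II invariant chain Cd74 was 4.42-fold lower at day 7 (adjusted p = 0.00837).

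Of 26 tested checkpoint and costimulation partners, 5, 13 and 9 were lower in Pfp/Rag2 -/- tumours at the 3 stages, with medians of -0.27, -0.55 and -0.19. Cd40, an activating receptor of antigen-presenting cells, read 6.14 and 6.37 in Pfp/Rag2 -/- tumours against 9.17 and 8.69 in WT tumours at day 7, 6.39-fold lower (adjusted p = 3.50e-04), and it was 8.47-fold lower at day 14 and 4.74-fold lower at the symptomatic stage, where 1 of 3 Pfp/Rag2 -/- arrays detected it. Tnfrsf4 (OX40, a costimulatory receptor of T cells) was at least 2.61-fold lower at day 7, 5.05-fold lower at day 14 and, with 2 of 3 Pfp/Rag2 -/- arrays detected, 3.05-fold lower at the symptomatic stage. Fgl2, detected on WT tumour arrays only and so open to lower calls only, was at least 1.94-fold lower at day 7. Ptpn6, which encodes the phosphatase SHP-1, was 3.06-fold lower at day 14 and 1.93-fold lower at the symptomatic stage. Rgmb, known as a binding partner of PD-L2, was the single gene of this list called higher in Pfp/Rag2 -/- tumours. It read 8.07, 8.16 and 8.35 in symptomatic Pfp/Rag2 -/- tumours against 6.73, 6.58 and 6.53 in WT tumours, 2.99-fold higher (adjusted p = 2.36e-06), and was 1.69-fold higher at day 14 (adjusted p = 0.00362). Cultured GL261 cells read 7.91 and 7.77 for Rgmb, between the 2 hosts' symptomatic values.

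**Figure D3:**
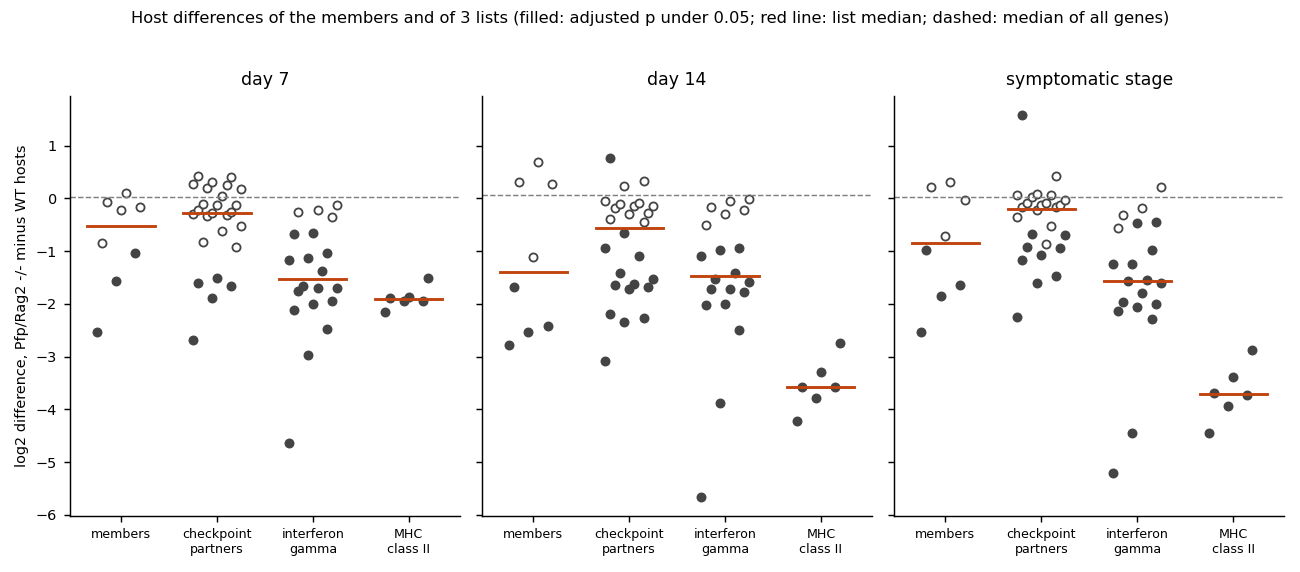
Log2 differences, Pfp/Rag2 -/- minus WT hosts, of the 8 members and of the tested genes of 3 lists at 3 tumour stages. Each point is a gene, filled where its adjusted p is under 0.05; the red line is the list's median and the dashed line the median of all genes. The 6 MHC class II genes are all filled, and Rgmb is the filled point above 0 at day 14 and the symptomatic stage.

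Some lists of lymphoid and myeloid markers moved with the hosts beside the members, and others did not. Of 8 tested T cell markers 5 were lower in Pfp/Rag2 -/- tumours at each stage, and Cd3d, Cd3e, Cd4 and Cd2 were not detected on any Pfp/Rag2 -/- tumour array. In WT tumours Cd4 alone of these 8 was not detected. Cd3d, Cd3e and Cd2 were not detected in healthy brain or cultured cells either. They entered the test through WT tumours only and could only be called lower. The summed T cell signal on the linear scale was 2372 to 2451 in Pfp/Rag2 -/- tumours against 2443 to 2869 in WT tumours at day 7, 1867 to 1959 in Pfp/Rag2 -/- against 3553 to 3894 in WT tumours at day 14, and 1839 to 1895 in Pfp/Rag2 -/- against 2297 to 2737 in WT tumours at the symptomatic stage. Cultured cells, in which Cd3d, Cd3e, Cd3g and Cd2 were not detected, summed to 3234 and 3474, above every WT tumour of day 7 and the symptomatic stage, so the sum is not specific to T cells. Of 8 tested macrophage and monocyte markers 2, 7 and 7 were lower at the 3 stages. Their summed signal was 2447 to 3805 in Pfp/Rag2 -/- tumours against 5343 to 5750 in WT tumours at day 7, 2165 to 2320 in Pfp/Rag2 -/- against 7935 to 7981 in WT tumours at day 14, and 1639 to 1698 in Pfp/Rag2 -/- against 4962 to 5668 in WT tumours at the symptomatic stage. Of 7 microglia markers 1 was called lower at day 14 and 1 at the symptomatic stage, with medians of -0.10, -0.69 and -0.09 at the 3 stages. Their summed signal overlapped between hosts at day 7 but not later. It was 4252 to 4285 in Pfp/Rag2 -/- against 7084 to 7249 in WT tumours at day 14. At the symptomatic stage it was 2627 to 3247 in Pfp/Rag2 -/- against 3884 to 8218 in WT tumours. Of 6 listed markers of regulatory and exhausted T cells 2 were tested and 0 were called at any stage, with medians of 0.36, 0.51 and 0.31, higher in Pfp/Rag2 -/- tumours. Both were also detected in healthy brain and in Pfp/Rag2 -/- tumours of every stage, so these medians are not specific to T cells. Of 4 tested dendritic cell markers 0, 2 and 2 were lower at the 3 stages, and 1 was higher at the symptomatic stage. Of these, Itgax, Ccr7 and Batf3 were detected in WT tumours only and could only be called lower. The lower calls were 2, 2 and 3 of 3 natural killer, 0, 1 and 1 of 2 B cell, and 0, 1 and 1 of 4 neutrophil markers. Among the 3 natural killer markers was Prf1, the gene of perforin, which Pfp/Rag2 -/- hosts lack. Its brighter probe was detected on every array, cultured cells included, and which part of the gene it reads is not known here. The symptomatic count includes Prf1 and so is not specific to natural killer cells. The part of the host mutation in that call was not tested. Choroid plexus markers ran the other way at day 7, with 3 of 6 higher in Pfp/Rag2 -/- tumours, a summed signal of 24518 to 39896 against 3559 to 10265 in WT tumours, and wide spread at later stages. The part of these cell types in the host differences of Cd274, Cd86, Havcr2 and Ctla4 was not tested.

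**Figure D4:**
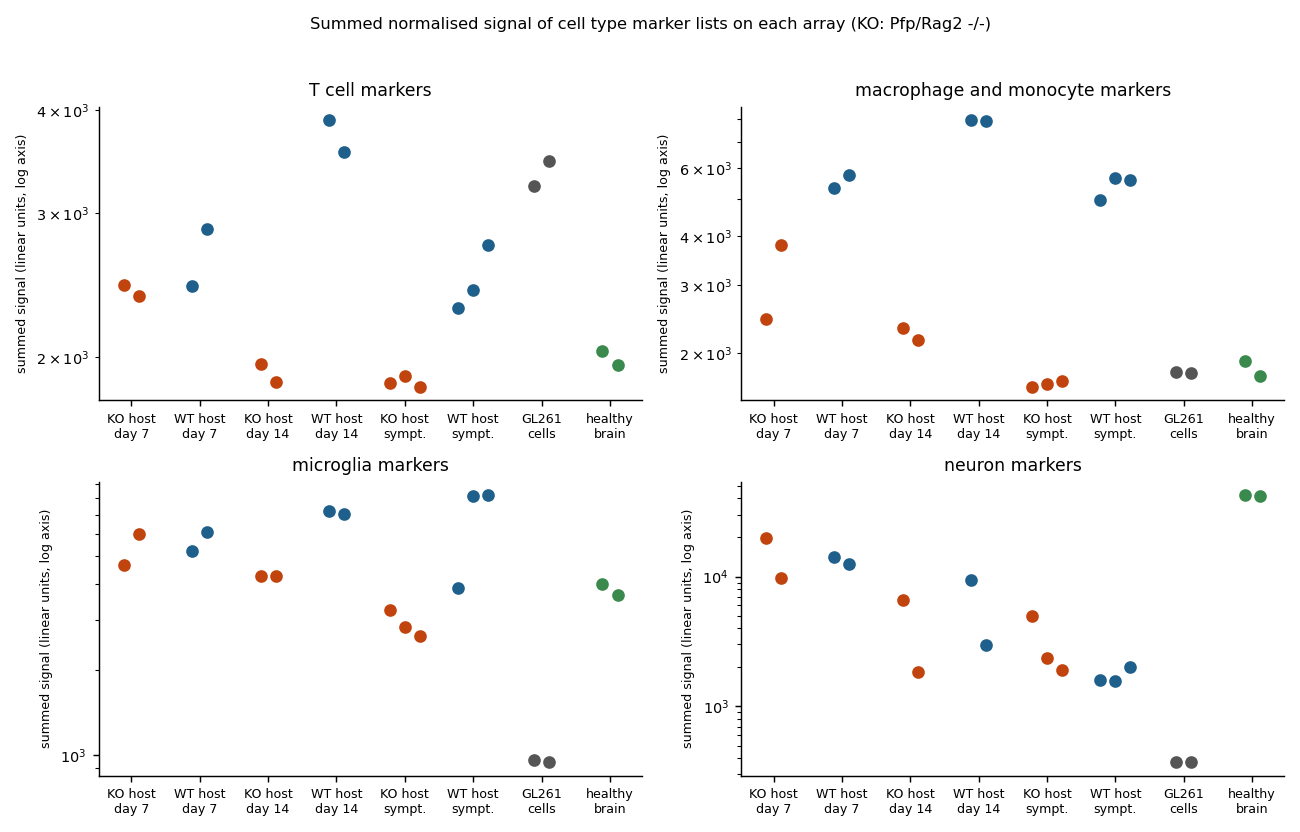
Summed normalised signal (linear units, log axis) of T cell, macrophage and monocyte, microglia and neuron marker lists on each of the 18 arrays, by group, with Pfp/Rag2 -/- (KO) hosts left of WT hosts. T cell, macrophage and microglia sums are lower in KO than in WT tumours at day 14 and the symptomatic stage, without overlap. Neuron sums vary several-fold within day 14 groups of both hosts.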

How the data were processed

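Tumour RNA was pooled from 2 or 3 mice, labelled with biotin and hybridised to Illumina MouseWG-6 v2.0 arrays, per the labels' protocols. The authors deposited each probe's intensity in linear units, with no scaling between arrays and no background subtraction, as the values show. A separate gene table, whose values are in a unit listed as other because of decimal commas, gives the lowest, mean and highest intensity of each group without normalization, per the file headers. The probe table holds no gene names. A gene was therefore linked to the probes whose group values gave all values of its row within 0.06 signal units, which linked 30552 of 30854 genes (99.0%) and 0 of 30854 decoys. Symbols were updated with the GRCm38.p6 annotation (16223 by symbol, 5692 by synonym). The symptomatic Pfp/Rag2 -/- replicates 2 and 3 are numbered in opposite order in titles and descriptions, and the titles were used.

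Signals were background-corrected with 936 negative control probes and quantile normalized in R 4.3.3 with neqc (limma 3.58.1, an offset of 16). Probes detected on at least 2 arrays were kept, the brightest probe standing for its gene. All 18 arrays were fitted in limma with 1 mean per group (10 residual degrees of freedom, prior 2.95), with Benjamini-Hochberg adjustment over 14027 genes in each of 14 contrasts. The procedure was tested on simulated data. Named genes are the members, the genes most correlated with each member, and the called genes with the smallest p of each list, up to 3 per direction; Ctla4, Lag3, Lgals9 and Cd80 neighbours without a current symbol, and those of Cd80 altogether, are not described, and 1 neighbour of Cd86 is not reported here. The members, lists and marker lists were chosen with earlier results of these data known. Alternatives covered scaling, background correction, offset, filter, probe choice, the deposited series matrix intensity values, the spread model, the arrays fitted, the replicate number as a block, and each array left out. The series matrix values were fitted as log2 intensities, without background correction or scaling between arrays. Median raw signal ran from 67 on an array of cultured cells to 134 on a Pfp/Rag2 -/- array of day 7.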

Additional observations from a re-analysis of the deposited data

Results flagged for a closer look

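The host difference of Ctla4 was called changed between stages. It was more negative at day 14 than at day 7 by -1.51 (SE 0.25, adjusted p = 0.0141 in limma), the single change of a host difference called among the 8 members, in a test that called 2.40% of all genes. The Pfp/Rag2 -/- arrays were at background on both days, and the 2 WT arrays of day 14 read 7.51 and 6.86 against 5.67 and 5.71 on the 2 WT arrays of day 7. The call was lost without WT replicate 1 of day 7 (adjusted p = 0.0710), with the series matrix values (0.0770) and with only the arrays compared in the fit (0.293). The 337 genes called in that test numbered 17 to 1367 with 1 array left out and 0, by limma, with only the arrays compared.

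Havcr2 had group means that moved in opposite directions in the hosts between day 14 and day 7, though neither change was called. It read 7.39 and 7.01 at day 14 against 7.42 and 7.83 at day 7 in Pfp/Rag2 -/- tumours, a log2 difference of -0.42, and 9.04 and 8.72 at day 14 against 8.45 and 8.47 at day 7 in WT tumours, a difference of 0.41. The arrays did not overlap in either host. Neither change passed the test (adjusted p = 0.132 and 0.226), and the difference between the changes, -0.84, missed the threshold too (adjusted p = 0.150). The Pfp/Rag2 -/- change passed with cyclic loess scaling (-0.71, adjusted p = 0.0336), 75th percentile scaling (-0.71, adjusted p = 0.0421) and the series matrix values (-0.67, adjusted p = 0.0260).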

How the results depend on the processing

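Of the 8 members' calls between hosts, those of Cd274 at the 3 stages, of Ctla4 at day 14 and of Cd274, Ctla4, Cd86 and Havcr2 at the symptomatic stage were kept under every alternative tried. With only the arrays compared in the fit, the number of members called fell to 1 at day 7 (3 in the fit of all arrays) and 2 at day 14 (4), to 0 for Pfp/Rag2 -/- day 14 against day 7 (2), 0 for WT day 14 against day 7 (1), 0 for WT symptomatic against day 14 (4) and 0 for the change of the host difference from day 7 to day 14 (1), all fits on fewer arrays. The series matrix values, with 7 members tested, gave 3 called for Pfp/Rag2 -/- symptomatic against day 14 (0), where 2392 of 7416 genes were called (4 of 14027 in the fit of all arrays). These values are not scaled between arrays. Median raw signal was 116 and 100 on the Pfp/Rag2 -/- arrays of day 14 and 93, 83 and 78 at the symptomatic stage. The series matrix values gave 0 for the change of the host difference from day 7 to day 14. Without the filter on detection 1 was called for Pfp/Rag2 -/- day 14 against day 7 and 2 for WT day 14 against day 7, with only the 14 tumour arrays 1 for the Pfp/Rag2 -/- comparison, and with 75th percentile scaling 1 for the change of the host difference from day 14 to the symptomatic stage (0); the cause was not tested.

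Leaving out 1 array at a time gave 1 to 4 members called between hosts at day 7, 4 to 5 at day 14 and 4 to 4 at the symptomatic stage. It gave 0 to 2 for Pfp/Rag2 -/- day 14 against day 7, 1 to 2 for WT day 14 against day 7, 2 to 6 for WT symptomatic against day 14, and 0 to 1 for each change of the host difference. Signs reversed, in values that passed no threshold, for Lgals9 at day 7 (-0.51 to 0.19 with 1 array left out, positive without Pfp/Rag2 -/- replicate 1) and for Cd276, which ran from -0.41 to 0.27 at day 7 (positive without Pfp/Rag2 -/- replicate 1 and, at 0.06, without WT replicate 2), from -0.042 to 0.67 at day 14 (negative without WT replicate 1) and from -0.10 to 0.014 in symptomatic tumours (positive without WT replicate 3). Single-gene alternatives are listed for the host comparisons, for called changes and for the Havcr2 change flagged above, a choice made after seeing the data; over all 8 members and 14 contrasts, 46 of 1852 alternative values reversed sign, none of them called under either setting (limma, lowest adjusted p = 0.0559). Over all genes the calls between hosts numbered 475, 1903 and 2386 at the 3 stages, against 278, 1411 and 1866 with the 14 tumour arrays alone, 61, 178 and 2273 with only the arrays compared, and 121 to 1253, 914 to 2383 and 1573 to 2368 with 1 array left out.

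Deviations of same-numbered arrays correlated at 0.06 (day 7), 0.72 (day 14) and -0.15, 0.09 and -0.26 (symptomatic). The numbers thus showed no pairing of the arrays at day 7 or the symptomatic stage, while same-numbered arrays of day 14 deviated alike. With the replicate number as a block the members called stayed at 3, 4 and 4. A pairing by replicate number within day 14 alone was not tested.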
